A study of Arabidopsis thaliana with 48 samples.

Results

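The FLC clade of Arabidopsis thaliana holds 6 genes for MADS-domain transcription factors, and their transcripts were followed over 5 days of synchronised flower development. The genes are FLOWERING LOCUS C (FLC, AT5G10140), FLOWERING LOCUS M (FLM, also MAF1, AT1G77080) and MADS AFFECTING FLOWERING 2 to 5 (MAF2, AT5G65050, MAF3, AT5G65060, MAF4, AT5G65070, and MAF5, AT5G65080). They were taken by locus identifier, and all 6 were present among the 23069 genes of the table. The plants were of 1 line, labelled Col-0, with mutations in APETALA1 (AP1) and CAULIFLOWER (CAL) and with a transgene in which the AP1 promoter drives AP1 fused to the hormone-binding part of the glucocorticoid receptor (GR). Such ap1 cal plants make cauliflower-like inflorescences in place of flowers, and dexamethasone lets the fusion protein enter the nucleus and start flowers there. The inflorescences were drenched with 2 µM dexamethasone, the first time 8 h after lights on and then daily 4 h after lights on, and polyA RNA was sequenced at day 0 (0 days after induction) and at days 1, 2, 3, 4 and 5. Each day had 4 biological replicates (n = 4), which gives 24 samples. Every sample carried the same alleles and transgene. The transgene acts only where the AP1 promoter is active. No course without dexamethasone was used here, so the time that passed and the induction cannot be told apart. The sources used here do not give the hour of sampling on each day.

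FLC-clade proteins delay the change from leaf to flower production. They bind DNA as complexes with each other and with the related protein SVP, and repress genes that promote flowering, among them FT, SOC1 and FD. FLC is the member that prolonged cold silences through Polycomb proteins, and FRIGIDA raises it. The Columbia accession carries a FRIGIDA allele that does not work. FLM, together with SVP, adjusts flowering to ambient temperature, MAF2 keeps a short cold spell from acting as a full winter, and MAF3 and MAF4 act with FLC in repressor complexes. MAF5 is the least characterised of them.

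The samples held 26.56 to 27.98 M counts. Levels are in CPM, that is, counts divided by a library size that TMM corrected for differences in RNA composition between samples. Of all genes, 19747 had enough counts for the test, and 5 of the 6 members were among them. FLC was left out by that filter. The 4 shoot meristem markers (STM, WUS, CLV3 and KNAT1) were all detected, as inflorescence tissue would give, with a summed level of 295 to 300 CPM at day 0, 277 to 303 CPM at day 1 and 114 to 178 CPM at day 5. All 4 fell from day 0 to day 5 and none was called at day 1. The 4 markers of green tissue summed to 4940 to 6830 CPM at day 0, 3640 to 4780 CPM at day 1 and 2740 to 3960 CPM at day 5, and 2 of them had fallen at day 1 and 3 at day 5. The 4 phloem markers summed to 75.3 to 91.6 CPM at day 0 and 85.2 to 116 CPM at day 5, where 2 rose and 1 fell. The 4 tapetum and pollen markers summed to 0 to 0.472 CPM at day 0, where DYT1 and MS1 were at 0 in all samples. They summed to 0.0347 to 11.1 CPM at day 1, 0.527 to 9.53 at day 2 and 0.106 to 26.2 at day 3. The sums were 0.0371 to 2.37 CPM at day 4 and 0.559 to 14.9 CPM at day 5. Samples of the same day thus differed widely from day 1 on. Over all tested genes, 10.1% were called in either direction at day 1 and 47.2% at day 5, both against day 0. The shares called lower were 5.85% and 22.9%. The part of these markers in the results was not tested. In these bulk samples, fewer cells of a type and less RNA per cell cannot be told apart.

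The members are close copies, which matters for counting their reads, so the first 60 bases of each MADS box are shown. Capitals mark bases that differ from MAF2, and positions are in the TAIR10.1 RefSeq assembly.
FLC (chr5:3179280-3179339, minus strand): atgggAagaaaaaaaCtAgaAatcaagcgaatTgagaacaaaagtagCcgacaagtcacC
FLM (chr1:28955679-28955738, plus strand): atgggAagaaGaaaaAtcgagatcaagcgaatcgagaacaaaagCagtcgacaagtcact
MAF2 (chr5:25982415-25982474, plus strand): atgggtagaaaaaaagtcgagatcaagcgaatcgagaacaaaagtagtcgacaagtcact
MAF3 (chr5:25987527-25987586, plus strand): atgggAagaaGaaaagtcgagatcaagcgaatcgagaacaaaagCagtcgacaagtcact
MAF4 (chr5:25992310-25992369, plus strand): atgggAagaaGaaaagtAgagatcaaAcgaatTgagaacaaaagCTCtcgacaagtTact
MAF5 (chr5:25997671-25997730, plus strand): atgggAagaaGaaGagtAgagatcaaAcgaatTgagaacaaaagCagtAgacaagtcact
MAF3 differed from MAF2 at 3 of these bases, FLM at 4, FLC at 7, MAF5 at 8 and MAF4 at 9. The longest annotated coding sequence of MAF5 starts 21 bases before the stretch shown.

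Over the whole coding sequence, MAF2 and MAF3 shared 93.6% of aligned bases, FLM and MAF3 shared 89.7%, and MAF4 and MAF5 shared 85.7%. FLC was the farthest from the rest, with 72.9% (MAF5) to 78.4% (FLM). The share of a gene's transcript 31-mers (runs of 31 bases) that also occur in another member was 10% for MAF3, 3.78% for MAF2, 1.12% for MAF5, 1.05% for FLM, 1.04% for MAF4 and 0% for FLC. For MAF3, 114 of its 149 shared 31-mers were shared with MAF2, so the split of reads between this pair is the least certain. FLC has another limit, because 60.6% of its 31-mers also occur in transcripts of other annotated genes. By far the most of these matches lie in its antisense gene AT5G01675, known as COOLAIR. Whether the counting used strand is not stated, so reads of FLC and of that antisense gene cannot be told apart.

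Some of the promoters shared short exact runs that few other promoters hold. One such run is in FLM, MAF2 and MAF3, and another is in MAF4 and MAF5. In the 250 bases before each annotated gene start, FLM, MAF2 and MAF3 shared a run of 18 bases that occurs in 3 of 27443 promoters of that length. MAF4 and MAF5 shared a run of 20 bases that occurs in 2 of them. The windows below show these runs in capitals.
FLM promoter (chr1:28955380-28955437, plus strand): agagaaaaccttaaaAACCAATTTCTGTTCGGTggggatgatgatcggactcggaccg
MAF2 promoter (chr5:25982054-25982111, plus strand): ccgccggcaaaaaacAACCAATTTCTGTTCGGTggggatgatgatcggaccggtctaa
MAF3 promoter (chr5:25987175-25987232, plus strand): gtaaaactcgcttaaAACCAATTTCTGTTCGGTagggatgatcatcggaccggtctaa
MAF4 promoter (chr5:25992035-25992094, plus strand): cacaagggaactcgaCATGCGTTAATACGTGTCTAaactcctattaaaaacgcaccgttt
MAF5 promoter (chr5:25997377-25997436, plus strand): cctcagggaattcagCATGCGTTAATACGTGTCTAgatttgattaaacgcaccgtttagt
The run lay 88 bases before the gene start in FLM, 185 in MAF2 and 119 in MAF3, and 143 in MAF4 and 112 in MAF5. These groups were not exclusive, since MAF2 and MAF4 also shared a run of 18 bases, nearer to the gene start. That run, too, occurs in 3 promoters. The longest run that FLC shared with another member was 10 bases. A CArG box, the element that MADS-domain proteins bind, was searched by its usual pattern on both strands. None of the 6 windows of 250 bases held 1, against 2.52% of all promoters of that length, and the result was the same for a relaxed pattern that 16% of promoters hold. A run or a match of this kind is a description of the letters and was not tested for function.

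Per kilobase of annotated transcript, averaged over the 24 samples, the levels ran from 68.0 ± 11 CPM per kb for MAF2, through 47.4 ± 4.6 for FLM and 27.9 ± 3.6 for MAF3, to 2.16 ± 0.45 for MAF5, 1.52 ± 2.1 for MAF4 and 0.216 ± 0.11 for FLC (SD, n = 24). The length used was the median annotated transcript, and the levels depend on it. FLM, for example, has annotated transcripts of 722 to 4099 bases. With the longest coding sequence as the length, the order was the same. The levels were 120 CPM per kb for MAF2, 77.3 for FLM, 54.6 for MAF3, 2.78 for MAF5, 2.17 for MAF4 and 0.364 for FLC. By either length MAF2, FLM and MAF3 formed a group of abundant transcripts, and the other members were far below them. At day 0 the MAF2 and FLM samples overlapped, and the neighbours below them in the order of day 0 (FLM and MAF3, MAF3 and MAF4, MAF4 and MAF5, MAF5 and FLC) did not. At day 0 MAF4 stood above MAF5, at 5.76 ± 1.1 against 1.96 ± 0.45 CPM per kb (SD, n = 4). At day 5 it stood below MAF5, at 0.160 ± 0.088 against 2.41 ± 0.47, and overlapped with FLC at 0.142 ± 0.064. MAF2, FLM and MAF3 together gave most of the level per kb summed over the clade on both days. MAF2 made up on average 43.2% of that sum at day 0 and 45.5% at day 5, and MAF4 made up 3.97% and 0.124%.

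**Figure D1:**
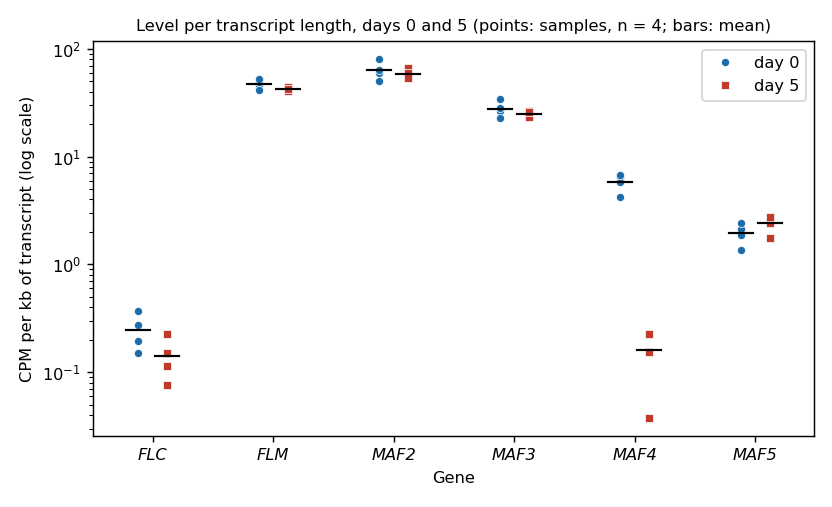
Level of each FLC-clade gene in CPM per kilobase of transcript, on a log scale, at day 0 (circles) and day 5 (squares), with 4 samples a day as points and their mean as a bar. MAF4 moves from 5.76 at day 0 to 0.160 at day 5, where it overlaps with FLC (0.248 at day 0 and 0.142 at day 5), and in each of the other members the samples of the 2 days overlap.

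MAF4, a repressor of flowering that acts in complexes with FLC, was the member that changed most, and it fell on the first day. Its counts in the 4 replicates were 168, 148, 110 and 182 at day 0, and 52, 67, 31 and 46 at day 1. They were 11, 18, 23 and 26 at day 2, and 14, 17, 11 and 13 at day 3. They were 9, 4, 8 and 4 at day 4, and 6, 4, 1 and 6 at day 5. Every day 0 sample was above every later sample, and every day 1 sample was above every sample of days 2 to 5. As a level, MAF4 went from 5.76 ± 1.1 CPM at day 0 to 1.74 ± 0.52, 0.700 ± 0.22, 0.503 ± 0.094, 0.232 ± 0.097 and 0.160 ± 0.088 CPM at days 1 to 5 (SD, n = 4).

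In the test of any change over the 6 days (edgeR quasi-likelihood, with Benjamini-Hochberg adjustment over all tested genes and a call at adjusted p under 0.05), MAF4 was the only 1 of the 5 tested members that was called, with an adjusted p of 1.36e-11. In the same test 48.9% of all genes were called. Against day 0, MAF4 fell by 1.72 on the log2 scale at day 1 (SE 0.26, adjusted p 0.000219 by edgeR), which is 3.3-fold lower. Its log2 fold change was -3.03 (SE 0.28) at day 2, -3.51 (SE 0.29) at day 3 and -4.61 (SE 0.33) at day 4. At day 5 it was -5.13 (SE 0.34, 95% interval -5.84 to -4.42, adjusted p 7.57e-11 by edgeR), which is 35-fold lower. MAF4 was the only member called lower in each of these comparisons, while 5.85% of all tested genes were called lower at day 1, 12.4% at day 2, 14.5% at day 3, 17.6% at day 4 and 22.9% at day 5. Among the 19747 tested genes, 44 (MAF4 included) had a log2 fold change as low as its own at day 1, and 14 at day 5. The day 5 fold change of MAF4 was -5.92 in sequencing batch 1 alone and -4.78 in batch 2 alone. At day 1, when MAF4 fell, none of the 4 shoot meristem markers was called, and the green tissue markers RBCS1A (-0.60, adjusted p 0.0123 by edgeR) and GAPA (-0.50, adjusted p 0.00501 by edgeR) fell. The green tissue markers LHCA1 (-0.32, adjusted p 0.136 by edgeR) and LHCB2.1 (0.05, adjusted p 0.921 by edgeR) were not called. At day 5 MAF4, all 4 meristem markers and 3 of the 4 green tissue markers were lower.

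From one day to the next, MAF4 also fell from day 1 to day 2, by 1.31 on the log2 scale (SE 0.29, adjusted p 0.0164 by edgeR). In that step 0.415% of all tested genes were called lower. This step was not called when any 1 of 4 libraries was left out: day 1 replicate 1 (adjusted p 0.0542), day 1 replicate 2 (0.0875), day 2 replicate 1 (0.0714) or day 2 replicate 2 (0.0583). It was also not called in batch 2 alone (adjusted p 0.0665). The later steps of MAF4 were -0.48 (SE 0.32) from day 2 to day 3, -1.10 (SE 0.37) from day 3 to day 4 and -0.52 (SE 0.45) from day 4 to day 5, with adjusted p of 0.694, 0.183 and 0.472 by edgeR. No member was called in these 3 steps, against 0.871%, 1.45% and 12.2% of all tested genes called in either direction. Across them MAF4 rested on 4 to 26 counts a library, and on 1 count in day 5 replicate 3.

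**Figure D2:**
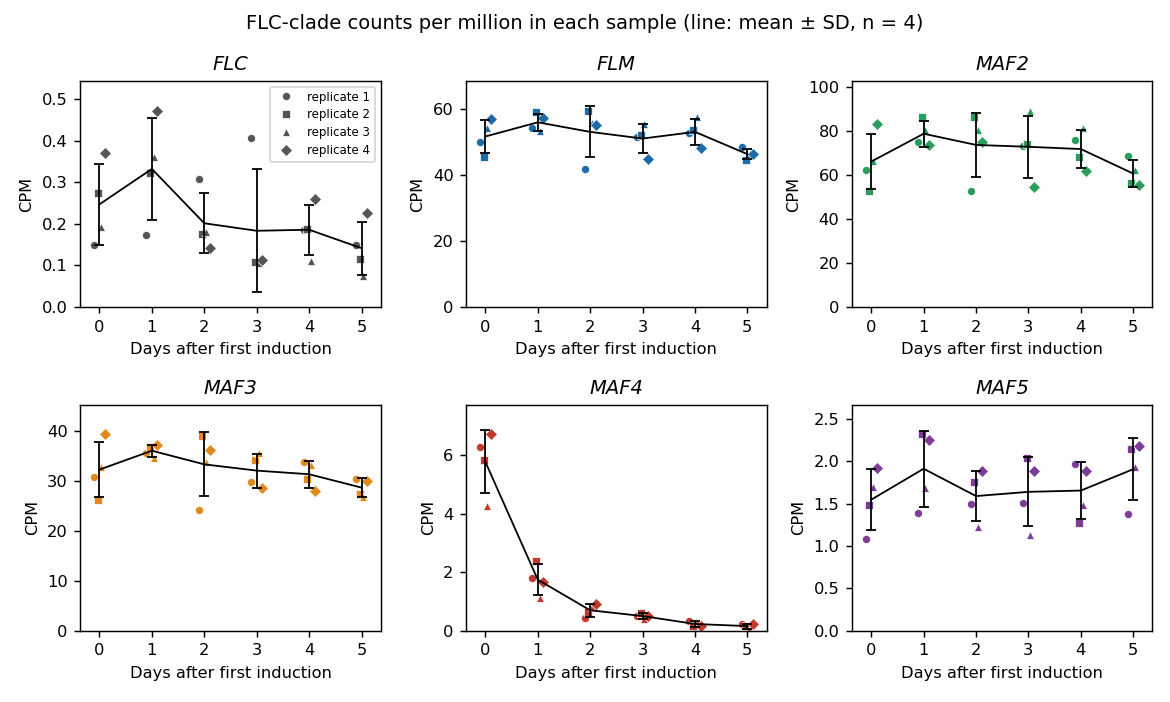
Level of each FLC-clade gene in CPM (vertical axis, with its own scale in each panel) by day after the first induction, with 1 point for each sample and the mean ± SD of 4 replicates as a line. MAF4 falls from 5.76 CPM at day 0 to 1.74 at day 1, FLM, MAF2 and MAF3 have their highest mean at day 1, and in these 3 genes replicate 1 of day 2 lies below the rest of its day.

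FLM, the temperature-dependent partner of SVP, had counts of 1343, 1157, 1404 and 1548 at day 0, 1567, 1654, 1486 and 1579 at day 1, and 1297, 1163, 1224 and 1235 at day 5. The day 5 samples overlapped with those of day 0 and lay below all those of day 1. The FLM level was 51.7 ± 5.0 CPM at day 0, 56.0 ± 2.6 at day 1, 53.1 ± 7.7, 51.1 ± 4.4 and 53.1 ± 3.9 at days 2 to 4, and 46.4 ± 1.6 at day 5 (SD, n = 4). MAF2, which guards against brief cold, had counts of 1670, 1341, 1721 and 2256 at day 0, 2159, 2423, 2237 and 2026 at day 1, and 1842, 1480, 1646 and 1471 at day 5. Its level was 66.2 ± 13 CPM at day 0, 78.8 ± 5.9 at day 1 and 60.7 ± 6.1 at day 5. MAF3, the closest copy of MAF2, had counts of 823, 663, 848 and 1067 at day 0, 1022, 1029, 961 and 1025 at day 1, and 814, 713, 710 and 799 at day 5. Its level was 32.2 ± 5.5 CPM at day 0, 36.0 ± 1.2 at day 1 and 28.6 ± 1.8 at day 5. For MAF2 and MAF3 too, all day 5 samples lay below all day 1 samples, and days 0 and 5 overlapped.

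None of FLM, MAF2 and MAF3 was called over the 6 days (adjusted p 0.170, 0.281 and 0.268 by edgeR) or on any day against day 0. At day 5 their log2 fold changes against day 0 were -0.16 (95% interval -0.34 to 0.03), -0.13 (-0.43 to 0.18) and -0.17 (-0.42 to 0.08). From day 1 to day 5 all 3 fell, with log2 fold changes of -0.27 for FLM (SE 0.089, adjusted p 0.0178), -0.38 for MAF2 (SE 0.15, adjusted p 0.0467) and -0.33 for MAF3 (SE 0.12, adjusted p 0.0318), all by edgeR. MAF4 fell in the same comparison (-3.41, SE 0.36, adjusted p 9.86e-08 by edgeR), so that 4 of the 5 tested members were called lower, against 18.8% of all tested genes. MAF5 was not called there (log2 fold change -0.003, SE 0.23).

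The calls of FLM, MAF2 and MAF3 from day 1 to day 5 were close to the threshold. FLM was not called without day 1 replicate 2 (adjusted p 0.0548). MAF3 was not called without day 1 replicate 1 (0.0529), 2 (0.0666) or 4 (0.0704), or without day 5 replicate 2 (0.0755) or 3 (0.0799). MAF2 was not called without any 1 of 7 of the 8 libraries, which were the 4 of day 1 (0.0612, 0.124, 0.0869 and 0.0552 for replicates 1 to 4) and replicates 2, 3 and 4 of day 5 (0.107, 0.0695 and 0.114). In sequencing batch 1 alone the adjusted p was 0.185 for FLM, 0.0798 for MAF2 and 0.12 for MAF3, and none was called. With replicate number 2, 3 or 4 left out of every day, none of the 3 was called either, with adjusted p of 0.0521 to 0.11 for FLM, 0.0701 to 0.216 for MAF2 and 0.0625 to 0.127 for MAF3.

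As a straight line over days 1 to 5, MAF4, MAF3 and FLM fell, with log2 slopes per day of -0.86 (SE 0.080, adjusted p 2.26e-08), -0.074 (SE 0.023, adjusted p 0.0140) and -0.053 (SE 0.020, adjusted p 0.0357) by edgeR. MAF2 had a slope of -0.077 (SE 0.031, adjusted p 0.0508) and MAF5 a slope of 0.005 (SE 0.049, adjusted p 0.945), and neither was called. Thus 3 of 5 tested members had a called fall, against 18.3% of the 19644 genes tested over these 20 samples. The slope of FLM was not called without day 1 replicate 2 (adjusted p 0.0712) or 4 (0.0594) or day 5 replicate 2 (0.0796), 3 (0.0685) or 4 (0.0662). With day 0 included, the slopes of FLM (-0.031, adjusted p 0.121 by edgeR) and MAF3 (-0.044, adjusted p 0.0825 by edgeR) were not called, and MAF4 was (-1.07). In sequencing batch 1 alone the slopes of FLM (adjusted p 0.308) and MAF3 (0.0881) were not called. Neither was called when replicate number 2, 3 or 4 was left out of every day. The adjusted p by edgeR was then 0.0542 to 0.218 for FLM and 0.0541 to 0.125 for MAF3. The slope of MAF2 was called without any 1 of 7 libraries: day 1 replicate 4 (0.0476), day 2 replicate 1 (0.0103), day 3 replicates 3 (0.0366) and 4 (0.0354), day 4 replicates 1 (0.0378) and 3 (0.0270), and day 5 replicate 1 (0.0470).

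FLM, MAF2 and MAF3 also varied together between replicates of the same day. Replicate 1 of day 2 was the lowest library of its day in all 3, with 41.9 CPM of FLM against 55.3 to 59.6 in the others, 52.9 CPM of MAF2 against 75.1 to 86.5, and 24.2 CPM of MAF3 against 33.7 to 39.0. Without that library the change over the 6 days was called for FLM (adjusted p 0.0197 by edgeR) and MAF3 (0.0454 by edgeR), and not for MAF2 (0.0945 by edgeR). Across the 24 samples, the deviations of log2 CPM from the day means had a Pearson r of 0.92 between FLM and MAF2, 0.92 between FLM and MAF3 and 0.87 between MAF2 and MAF3. For MAF4 with these 3 genes r was 0.28 to 0.47, and for MAF5 with the other tested members it was -0.11 to 0.16. These are descriptions over samples that share libraries, and MAF2 and MAF3 also share sequence. The counts of MAF4 and MAF5 were low, which limits any correlation with them.

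MAF5 is the member next to MAF4 on the chromosome and its closest copy. It had counts of 29, 38, 44 and 52 at day 0, and 40, 65, 47 and 62 at day 1. It had 39, 50, 34 and 53 at day 2, 41, 56, 32 and 50 at day 3, 53, 34, 40 and 51 at day 4, and 37, 56, 51 and 58 at day 5. All days overlapped. Its level was 1.55 ± 0.35 CPM at day 0 and 1.91 ± 0.37 at day 5 (SD, n = 4). The log2 fold change at day 5 was 0.30 (SE 0.23, 95% interval -0.18 to 0.77, adjusted p 0.297 by edgeR), and the change over the 6 days was not called (adjusted p 0.692 by edgeR).

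FLC, the central floral repressor of the clade, was near the limit of detection throughout. Its counts were 4, 7, 5 and 10 at day 0, 5, 9, 10 and 13 at day 1, and 8, 5, 5 and 4 at day 2. They were 11, 3, 3 and 3 at day 3, 5, 5, 3 and 7 at day 4, and 4, 3, 2 and 6 at day 5. The samples of days 0 and 5 overlapped, with means of 0.247 ± 0.097 and 0.141 ± 0.064 CPM (SD, n = 4). An exact two-sided permutation test of the CPM gave p = 0.114 between them. The highest mean was at day 1, 0.331 ± 0.12 CPM. With no filter on low counts, edgeR gave FLC a log2 fold change of -0.79 at day 5 against day 0 (adjusted p 0.201) and of -1.20 at day 5 against day 1 (adjusted p 0.0497). With single libraries left out, FLC failed the filter without day 0 replicate 4, day 1 replicate 4 or day 3 replicate 1. These were its highest libraries, at 0.369, 0.472 and 0.405 CPM. Day 5 against day 1 was thus not tested without the high day 1 replicate 4, which all settings below kept. In the settings where FLC passed, day 5 against day 1 was called by edgeR without day 1 replicate 1 (adjusted p 0.0218) or day 5 replicate 4 (0.0271). It was not called without day 1 replicate 2 (0.0652) or 3 (0.0783), or day 5 replicate 1 (0.063), 2 (0.0919) or 3 (0.115), or without replicate number 2 (0.168) or 3 (0.197) of every day. The FLC slope over days 1 to 5 was -0.26 on the log2 scale per day with no filter (adjusted p 0.0457 by edgeR) and -0.25 without replicate number 2 of every day (adjusted p 0.138 by edgeR). The antisense gene AT5G01675 had 0 to 3 counts in a sample.

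**Figure D3:**
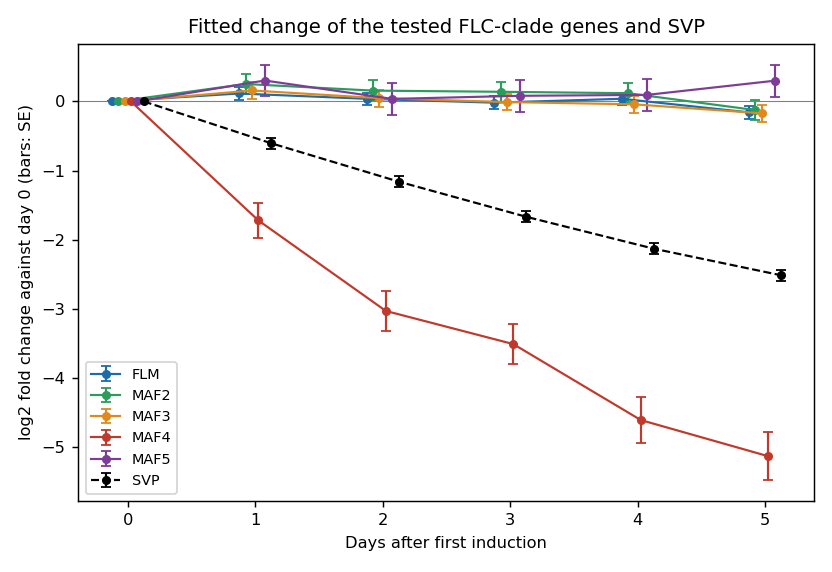
Fitted log2 fold change against day 0 (vertical axis, bars are SE) by day for the 5 tested FLC-clade genes and SVP. MAF4 reaches -5.13 and SVP -2.51 at day 5, and FLM, MAF2, MAF3 and MAF5 stay between -0.17 and 0.30 at that day.

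The ratio of 2 members within a sample needs no scaling between libraries. The 6 members and SVP give 21 pairs, and day 5 was compared with day 0 by an exact two-sided permutation test whose smallest p is 0.0286 (1 of 70 arrangements of the 8 samples in each direction). In 12 pairs the days did not overlap, each with that smallest exact p and an adjusted p of 0.050 over the 21 pairs, which is at the threshold and not under it. All 6 pairs with MAF4 were among them. The log2 ratio of MAF4 to MAF5 counts was 1.91 ± 0.50 at day 0, -0.15 ± 0.45 at day 1 and -3.84 ± 1.3 at day 5 (SD, n = 4). The log2 ratio of MAF4 to SVP counts went from -4.16 ± 0.25 to -7.08 ± 1.2, so that MAF4 stood lower beside SVP in every day 5 sample than in any day 0 sample. The log2 ratio of FLM to SVP went from -0.97 ± 0.087 to 1.39 ± 0.094, so that FLM had fewer counts than SVP in every day 0 sample and more in every day 5 sample. FLM, MAF2 and MAF3 kept their proportions more closely, with a log2 ratio of MAF2 to MAF3 of 1.03 ± 0.030 at day 0 and 1.08 ± 0.15 at day 5 (exact permutation p 0.600), and of FLM to MAF3 of 0.69 ± 0.11 and 0.70 ± 0.067 (exact permutation p 1).

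**Figure D4:**
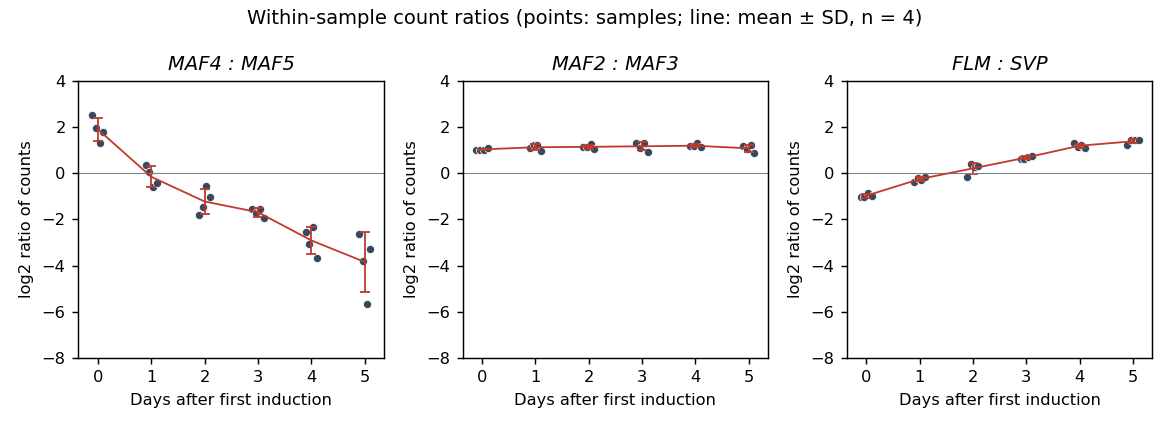
Log2 ratio of the counts of 2 genes in the same sample (vertical axis) by day, with samples as points and the mean ± SD of 4 replicates as a line. MAF4 to MAF5 falls from 1.91 to -3.84, MAF2 to MAF3 lies at 1.03 and 1.08 at days 0 and 5, and FLM to SVP goes from -0.97 to 1.39.

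The 4 MAF genes other than FLM lie head to tail on the plus strand of chromosome 5, within 20366 bases. In TAIR10.1, MAF2 spans chr5:25982254-25986435, MAF3 chr5:25987309-25991412, MAF4 chr5:25992193-25996202 and MAF5 chr5:25997504-26002619, with 780 bases between MAF3 and MAF4 and 1301 bases between MAF4 and MAF5. FLC lies on the other arm of the chromosome (chr5:3173382-3179448, minus strand) and FLM on chromosome 1 (chr1:28955483-28960234, plus strand). In the cluster, MAF4 was the only gene called from day 0 to day 5, between MAF3 at -0.17 (SE 0.12) and MAF5 at 0.30 (SE 0.23) on the log2 scale. The nearest coding genes outside the cluster were AT5G65040 (0.21, SE 0.14, adjusted p 0.242 by edgeR) and BST1 (0.49, SE 0.54, adjusted p 0.474 by edgeR), and neither was called at day 5. AT5G65040 was called over the 6 days (adjusted p 0.000172 by edgeR), with 3.70 to 10.9 CPM in single samples. Beside FLM, neither AT1G77060 (-0.18, SE 0.13) nor AT1G77090 (0.21, SE 0.10) was called at day 5 or over the 6 days. Beside FLC, AT5G10130 had too few counts for the test and AT5G10150 rose by 0.61 on the log2 scale (SE 0.073, adjusted p 4.36e-07 by edgeR).

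**Figure D5:**
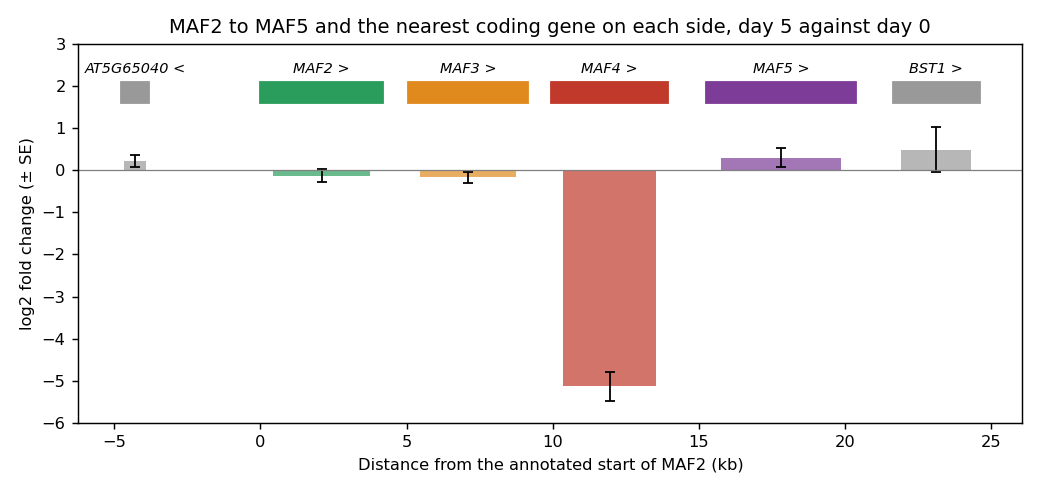
Log2 fold change at day 5 against day 0 (vertical axis, bars are SE) of MAF2 to MAF5 and of the nearest coding gene on each side, placed by distance from the annotated start of MAF2 in kb, with gene bodies as boxes and arrowheads for strand. MAF4 stands at -5.13 and its neighbours MAF3 and MAF5 at -0.17 and 0.30.

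SVP, the MADS-domain partner of the clade, fell at every step. It went from 101 ± 7.5 CPM at day 0 (94.0 to 111) to 66.7 ± 2.5 at day 1, 45.5 ± 0.73, 32.0 ± 3.7 and 23.2 ± 1.7 at days 2 to 4, and 17.8 ± 1.8 at day 5 (16.2 to 20.4), a log2 fold change of -2.51 (SE 0.082, adjusted p 9.16e-16 by edgeR). No later day overlapped with day 0. Of the 7 genes listed as partner and targets of FLC-clade repressors, 6 were tested, and 5 fell at day 1 and at day 5. Over all tested genes, 5.85% were called lower at day 1 and 22.9% at day 5. The median log2 fold change of the list was -0.55 and -1.53, beside -0.002 and -0.01 over all tested genes. FD, which meets the FT protein in the shoot apex, fell from 154 ± 9.0 to 37.0 ± 2.4 CPM, and SOC1, a MADS-domain integrator of flowering signals, from 185 ± 29 to 77.8 ± 8.9 CPM. AGL24, a MADS-domain promoter of flowering related to SVP, fell from 94.4 ± 8.1 to 26.9 ± 2.0 CPM. SPL15, a promoter of flowering at the apex, fell from 44.8 ± 1.5 CPM to 27.3 ± 1.2 at day 1 and stood at 28.4 ± 3.5 at day 5. FT, the mobile flowering signal made in leaves, was at 0.197 ± 0.13 CPM at day 0 and 0.473 ± 0.27 at day 5 and was not called (log2 fold change 1.23, SE 0.54, adjusted p 0.0667 by edgeR). From day 1, when it was at 0.161 ± 0.047 CPM, FT was called higher at day 5 (log2 fold change 1.53, SE 0.55, adjusted p 0.031 by edgeR). Its slope over days 1 to 5 was 0.38 per day (SE 0.11, adjusted p 0.00835 by edgeR), on 1 to 19 counts a sample. FT passed the count filter only through samples of days 3 to 5. Its highest samples were at 0.332 CPM at day 0, 0.214 at day 1 and 0.354 at day 2. That selection favours a rise, so these calls are not a fair test of a rise. The change of FT over the 6 days was not called (adjusted p 0.138 by edgeR). Its relative TSF had 0 to 3 counts in a sample and was not tested. Most of these genes are known to repress or promote flowering at the shoot apex. None of the 4 shoot meristem markers was called at day 1, and all 4 were lower at day 5. A link between these markers and the listed genes was not tested.

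Factors that act on FLC were followed as 3 lists, and their counts at day 5 against day 0 stand beside 47.2% of all tested genes called in either direction and a median log2 fold change of -0.01 over those genes. Of 23 activators of FLC, all tested, 1 rose and 5 fell, with a median log2 fold change of -0.03. JMJ30, a histone demethylase gene that also follows the daily clock, fell from 125 ± 47 to 50.8 ± 12 CPM at day 1 and 24.7 ± 12 at day 5 (log2 fold change -2.33, SE 0.40, adjusted p 4.88e-05 by edgeR), and it was the only 1 of the list called at day 1, when 10.1% of all tested genes were called in either direction. On the log2 scale FRL2, a relative of FRIGIDA, fell (-0.30), as did VIP3 of the Paf1 complex (-0.18), and SDG8, a histone methyltransferase gene, rose (0.18). FRIGIDA itself (FRI) was at 13.7 ± 1.4 and 14.9 ± 0.71 CPM (adjusted p 0.170 by edgeR). Of 13 autonomous pathway and FLC-silencing factors, 2 rose and 3 fell, with a median of 0.09. CSTF64, an RNA 3′ end processing factor, rose (log2 fold change 0.44), as did the homeodomain protein gene LD (0.31). FVE, a histone-binding protein gene, the histone demethylase gene LDL1 and the histone deacetylase gene HDA6 fell (-0.28, -0.21 and -0.13). Of 12 vernalization and Polycomb factors, 4 rose and 1 fell, with a median of 0.06. VIN3, the cold-induced gene of vernalization, rose from 0.315 ± 0.090 to 0.755 ± 0.30 CPM (log2 fold change 1.25, SE 0.37, adjusted p 0.00824 by edgeR) on 5 to 28 counts a sample. VAL2, whose protein brings Polycomb to FLC, rose (0.26), as did VRN2, a Polycomb subunit (0.31), and VRN5, a partner of VIN3 (0.18), while LHP1, a reader of the Polycomb mark, fell (-0.15).

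Among 8 other floral repressors, which act outside the clade, 4 rose and 1 fell from day 0 to day 5, again beside 47.2% of all tested genes called, with a median log2 fold change of 0.44. TFL1, which keeps the shoot apex from becoming a flower, fell from 29.5 ± 2.6 to 15.3 ± 0.92 CPM at day 1 and 11.9 ± 2.3 at day 5 (log2 fold change -1.30, SE 0.12, adjusted p 1.44e-08 by edgeR). The AP2-type repressor genes SMZ and TOE2 rose, SMZ from 0.341 ± 0.084 to 1.55 ± 0.32 CPM and TOE2 from 14.3 ± 2.9 to 24.1 ± 1.7 CPM. TEM1, a repressor of FT, rose by 0.57 on the log2 scale, and its relative TEM2 by 1.02. SNZ (log2 fold change 0.31), TOE1 (-0.08) and TOE3 (-0.44) were not called.

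The genes whose log2 CPM followed a member most closely over the 24 samples were sought among 6764 tested genes with a symbol and a mean of at least 5 CPM. For MAF4 they were SVP (Pearson r 0.95), FD (0.95) and AGL24 (0.95), which all fell over the course. FLM and MAF3 had the same 3 genes, with r of 0.94 and 0.92 for VIIIB, 0.94 and 0.91 for UMAMIT38, and 0.91 and 0.92 for NF-YC12. For MAF2 they were FOLT1 (0.92), SIS3 (0.91) and SUA (0.90). For MAF5 the highest values were lower, with 0.69 for FBH1, 0.57 for CYN and 0.55 for MTK. These r describe samples that share days and libraries, and no p is given for them.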

How the data were processed

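Plants were kept at 21 °C with 16 h of light per day, per the labels. The authors deposited whole-number expected counts, 1 column for each of 48 runs. FastQC, Trim Galore, Salmon 0.12.0 and DESeq2 with TAIR10 are named in the submitters' processing notes, without saying which of them made the counts. The 2 runs of a sample (1 per sequencing batch) were summed. Runs of a sample differed by a chi-square per degree of freedom of 1.05 to 1.23 (24 pairs), and replicates of a day by 3.62 to 62.4 (36 pairs).

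Genes that passed filterByExpr (counts of at least 10, total of at least 15) entered edgeR 4.0.16 (R 4.3.3, quasi-likelihood, TMM factors 0.944 to 1.04, 18 residual degrees of freedom), with Benjamini-Hochberg adjustment over all tested genes and calls at adjusted p under 0.05. The SE is the size of the log2 fold change over the square root of F. All comparisons with day 0 share its samples. Symbols of 22915 genes and all sequences came from RefSeq (TAIR10.1). Within-sample log2 ratios of counts were compared by exact permutation. The test was checked on simulated counts with known changes. Intervals of 95% use the t quantile of the fit.

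The members, all gene and marker lists, and the naming rule were chosen with earlier results of these data known. The rule names the 6 members, SVP, SOC1, FT and FD, up to 4 genes per list with the smallest adjusted p at day 5 against day 0, the 3 genes most like each tested member, and the nearest coding genes. HDA6, VRN5, FRI, SPL15, SNZ, TOE1, TOE3, TSF, TEM2 and single markers were named in addition, after their values were seen, to complete counts. The CPM test of FLC was also added after seeing the data. Alternatives were DESeq2 1.42.0, its size factors within edgeR, unscaled totals, every gene kept, only genes averaging at least 10 CPM, a replicate block, each batch alone, the compared days alone, and each replicate number and each library left out.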

Additional observations from a re-analysis of the deposited data

Results flagged for a closer look

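Within each day, the highest and the lowest of the 4 replicates of each member were set against the rest, which makes 36 groups, and chance alone flags about 1 group in 20. A single value stood apart. FLC in day 3 replicate 1 was at 0.405 CPM, and the other 3 replicates of that day lay at 0.106 to 0.113 CPM. The gap was 0.977 of the range of that day, above the limit set for 4 samples. The value rests on 11 counts against 3 in each of the others. In the same library no other member stood apart in this way.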

How the results depend on the processing

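MAF4 kept its direction and its call in every alternative run for the change over the 6 days (35 of 35), for each day against day 0 (20 of 20 for each day) and for day 5 against day 1 (20 of 20), with a log2 fold change of -5.92 to -4.78 at day 5 against day 0. A mean of at least 10 CPM leaves MAF4, MAF5 and FLC untested. Its fall from day 1 to day 2 kept its call in 12 of 20. Leaving out libraries or replicate numbers moved the adjusted p of the 6-day test from 0.0197 to 0.485 for FLM and from 0.0454 to 0.514 for MAF3. Day 5 against day 1 under the replicate block gave -0.38 for MAF2 (adjusted p 0.0513 by edgeR), whose call was also lost with DESeq2 size factors (0.0543), no filter (0.0505) and a mean of at least 10 CPM (0.061), and under the block its slope over days 1 to 5 was called (adjusted p 0.0337 by edgeR), as it was with library totals (0.0194), no filter (0.0486), DESeq2 (0.0387) and batch 2 alone (0.0368). The replicate block changed no other call of a member. Samples of different days were correlated by their deviations from the day means. Same-numbered samples had r of -0.31 to 0.60 (median 0.046) and differently numbered samples -0.50 to 0.51 (median -0.009). The test as reported assumed no pairing by replicate number. Without a filter, FLC had an adjusted p of 0.0497 at day 5 against day 1 and 0.0457 in the trend by edgeR. In batch 2 alone 13 ratios had an adjusted exact p of 0.0462.

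Counts over all genes moved by over 1.5 times in these settings, and the cause was not tested beyond fewer genes or samples. At a mean of at least 10 CPM, 6386 genes changed over the 6 days (9661 in the test as reported), 3811 at day 3 and 6165 at day 5 against day 0, 5117 at day 5 against day 1, 5189 in the trend, 192 from day 1 to 2, 63 from day 2 to 3 and 188 from day 3 to 4. Batch 1 alone gave 240, 90, 164 and 1392 for the 4 later steps, the compared days alone 595, 21, 147 and 752, and DESeq2 589, 323 and 469 for the first 3 of them (376, 172, 286 and 2403 as reported). Leaving out replicates or libraries gave 6336 to 10203 over the 6 days, 337 to 2128 at day 1 and 2636 to 5353 at day 2 against day 0, and 82 to 402, 5 to 194, 36 to 339 and 864 to 2821 for the 4 steps. With library totals, the share of rises among all genes called went from 41.8% to 64.9% at day 1 against day 0, from 53.8% to 36.8% at day 5 against day 1, from 54.7% to 37.1% in the trend, from 63.7% to 44.2% from day 4 to 5 and from 78.2% to 66.7% from day 1 to 2.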
